A study of Mus musculus with 58 samples.

Results

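The unmanipulated quadriceps of 3 groups of wild-type mice was compared across 2 inbred strains, BALB and FVB. The wild-type mice were taken by their genotype label, which gave 14 of the 34 mice and 23 of the 58 arrays of the series. The BALB group was 3 mice of genotype Clcn1_WT, aged 3 months and run in experiment 2 beside Clcn1-null mice. The FVB 6-month group was 6 FVB wild type mice of experiment 1, run beside the transgenic lines 20b and 41. The FVB 3-month group was 5 mice of genotype Mbnl1_WT of experiment 3, run beside Mbnl1-null mice. All were labelled male. Experiments 1 and 2 used the Affymetrix array pair 430A and 430B for each mouse, and experiment 3 used the single array 430 2.0, which carries the probe sets of both.

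Quadriceps is a mixed thigh muscle made mainly of fast, glycolytic fibres, with small numbers of slow, oxidative fibres and with vessels, nerve, fat, connective tissue and resident immune cells between them. Inbred strains such as BALB and FVB differ at very many places in the genome. The major histocompatibility complex, which encodes the class I and class II proteins that present peptides to T cells, is among the most variable of these, and interferon-inducible genes are another group that is known to vary between mouse strains.

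The 3 experiments had different intensity scales, so levels were compared as ranks. BALB mice had array medians of 302 to 307 (430A) and 22.4 to 23.1 (430B), and FVB mice of 6 months had medians of 421 to 433 (430A) and 30.2 to 33.7 (430B). In FVB mice of 3 months, the 430A probe sets had a median of 45.4 to 51.5 and the 430B probe sets one of 7.24 to 7.83. Each probe set was given its percentile among the 430A or the 430B probe sets of the same array, with 100 at the top. For a size in log2, the rank was put back on the mean sorted log2 intensities of the BALB and FVB 6-month arrays, which is called the rank-matched log2 scale below. A level compares mice for 1 probe set and is never set against that of another probe set. Arrays give no counts, so the number of arrays in a group limits the precision.

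Percentiles of all ranked probe sets correlated at 0.996 between any 2 BALB mice, at 0.992 to 0.996 between FVB mice of 6 months and at 0.995 to 0.997 between FVB mice of 3 months. Between groups, the correlation was 0.815 to 0.823 for BALB with FVB 6-month mice, 0.776 to 0.782 for BALB with FVB 3-month mice and 0.806 to 0.821 for FVB 6-month with FVB 3-month mice. These are descriptions across the same probe sets. BALB and FVB 6-month mice were on the same array design, which shares probe sequence and labelling, whereas FVB 3-month mice were on another array type. The 2 groups of the same strain were no closer to each other than the BALB mice were to the FVB mice of 6 months. Array type differed only in the comparisons with FVB 3-month mice, and its part in these correlations was not tested.

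Markers of skeletal muscle stood near the top of every array. Alpha-actin of skeletal muscle (Acta1), the fast calcium pump Atp2a1 and the fast troponin genes Tnnt3 and Tnnc2 were all at percentiles of 99.7 or more in all 14 mice. The mean percentile over the 31 tested probe sets of 18 muscle genes was 91.9 to 92.4 in BALB mice, 94.0 to 94.2 in FVB mice of 6 months and 92.4 to 93.3 in FVB mice of 3 months. The tissue label was therefore borne out in each group.

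The sex label was not borne out in experiment 2. A probe set of Xist, the RNA that coats the inactive X chromosome of female cells, was at percentiles 83.7, 83.3 and 82.6 in the 3 BALB mice. It was at 23.6 to 24.9 in FVB mice of 6 months and at 1.47 to 1.54 in FVB mice of 3 months. The BALB mice lay far above all 11 FVB mice.

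Genes of the Y chromosome ran the other way. Eif2s3y, a Y-linked translation initiation factor, was at percentiles 13.1, 12.8 and 12.9 in BALB mice, against 75.2, 82.8 and 86.3 (lowest, median and highest) in FVB mice of 6 months and 91.3, 92.4 and 92.9 in FVB mice of 3 months. All 4 probe sets of Uty and both of Kdm5d, a pair of Y-linked histone demethylase genes, were also below every FVB mouse. The 3 Clcn1-null mice of the same experiment showed the same pattern, with Xist at 80.8 to 83.9. Sex-linked signal therefore differed with strain, as did experiment, and age or array type differed with one or the other FVB group. These cannot be told apart in these mice, and the part of sex in any result below was not tested.

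**Figure D1:**
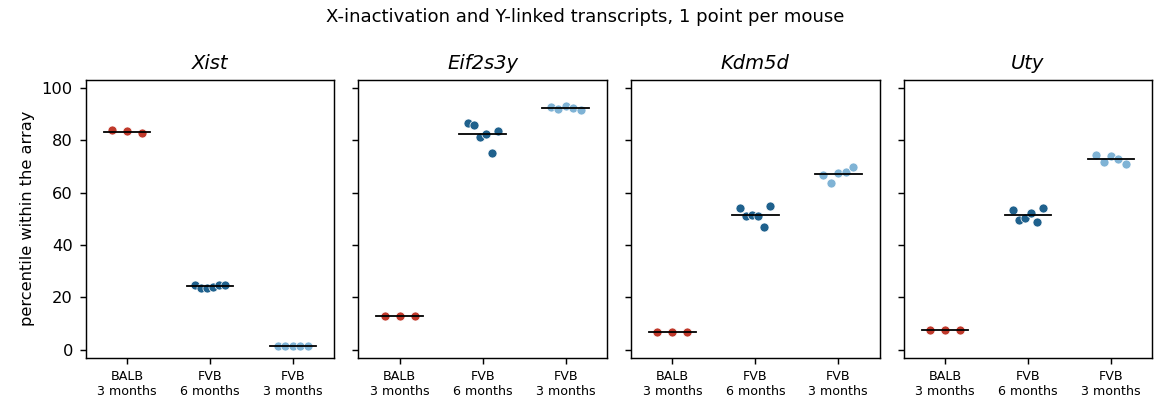
Within-array percentile (vertical axis, 0 to 100) of probe sets of the X-inactivation RNA Xist and of the Y-linked genes Eif2s3y, Kdm5d and Uty in each mouse, with 1 point per mouse and the groups side by side. The BALB mice lie above all FVB mice at 1 probe set of Xist and below all FVB mice at every Y-linked probe set shown.

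BALB and FVB 6-month mice were in the same array design, so that difference was tested with limma on the rank-matched log2 scale, with Benjamini-Hochberg adjustment over 30691 probe sets of 14287 genes. Of these, 25844 (84.2%) passed an adjusted p of 0.05, 14426 (47%) of them higher and 11418 (37.2%) lower in BALB. The FVB 3-month mice were normalised in a separate table, so no p-value was computed against them. A probe set was kept as differing from both FVB groups when it passed this test, when all 3 BALB mice lay outside the range of all 11 FVB mice on 1 side, and when BALB differed from the nearer FVB group by more than the FVB groups differed from each other. This left 11582 probe sets (37.7%), with 6320 (20.6%) higher and 5262 (17.1%) lower in BALB. The p-values measure only the spread between these mice, since the labels do not say which litters or cages the mice came from.

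Each FVB group also stood apart from the other 2 groups at many probe sets. Without the test, the same separation set BALB apart at 11594 probe sets (37.8%), FVB 6-month mice at 7723 (25.2%) and FVB 3-month mice at 7505 (24.5%). With a size of at least 1 on the rank-matched log2 scale asked for as well, the counts were 8189, 5556 and 5592. One of the 3 groups stood apart at 26822 probe sets (87.4%), and BALB was that group in 43.2% of them. By its form, the third condition is met by 1 of any 3 unequal group means, whatever their strain. The shares of the 3 groups are not like for like. Probe sets were admitted by their level in BALB and FVB 6-month mice, so those bright in FVB 3-month mice alone were not counted. The share in which BALB was kept was 38.4% under a mean percentile of 50, 34.9% from 50 to 75, 41.4% from 75 to 90 and 38.4% over 90. The median size against the nearer FVB group in these bands, was 1.73, 1.55, 1.04 and 0.85. For these medians, a group lying wholly under the 30th percentile of 430A or the 50th of 430B, taken as the floor of detection, was set at that floor. A probe set could enter the test through the 3 BALB mice alone. Its p-value then rests on FVB values under the floor and gives no measure of the size.

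**Figure D2:**
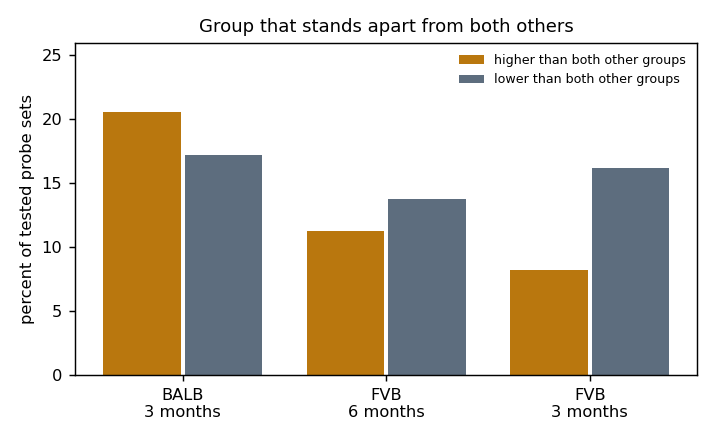
Percent of the tested probe sets (vertical axis) at which 1 group stands apart from both others, with a bar for higher and a bar for lower, for BALB, FVB 6 months and FVB 3 months. BALB is higher at 20.6% and lower at 17.2%, FVB of 6 months higher at 11.3% and lower at 13.8%, and FVB of 3 months higher at 8.25% and lower at 16.2%. Probe sets bright only in FVB 3-month mice were not among those tested.

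The mutant mice of the same experiments carried the same separation. At 9421 of the 11582 kept probe sets (81.3%), the 3 Clcn1-null mice lay outside the range of the 17 line 20b, line 41 and Mbnl1-null mice on the same side, and at 24 they lay on the opposite side. Over all tested probe sets, Clcn1-null mice lay above those mutants at 27% and below them at 21.7%. These mice were not used to choose the probe sets, but they share the experiments of the wild-type groups.

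Probe sets of 1 gene often disagreed. Of 6357 genes with at least 2 tested probe sets, 4420 had any kept, 851 of these (19.3%) had probe sets kept in both directions, and 396 (8.96%) had all of them kept 1 way, 198 higher and 198 lower. The behaviour of other probe sets is therefore given beside many of the genes below. For scale, at the margin of the third condition Ppp2r5e was just inside, at -1.08 from the nearer FVB group with the FVB groups 1.08 apart, and Nr3c1 was just outside, at -1.34 with the FVB groups 1.34 apart.

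Of the 12 genes named for a high rank-matched difference above both FVB groups, several act in immune defence. One was the class II gene H2-Ea, which encodes the alpha chain of the peptide-presenting E molecule and is not expressed in mice of some histocompatibility haplotypes. Its probe set was at percentiles 77.2, 84.8 and 76.8 in BALB mice, against 12.1, 13.0 and 23.3 (lowest, median and highest) in FVB mice of 6 months and 22.5 to 23.3 in FVB mice of 3 months. The BALB mice lay above all FVB mice, and both FVB groups lay under the floor. Against that floor, H2-Ea was at least 90.8-fold higher in BALB (limma adjusted p = 1.27e-09 against FVB of 6 months). Only the BALB mice brought this probe set into the test, so that p-value rests on FVB values under the floor. A second probe set of H2-Ea was not kept and differed by -1.03 on the rank-matched log2 scale.

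The partner beta chain gene H2-Eb1 was higher too, at percentiles 57.6, 69.5 and 60.7 in BALB mice, against 25.7, 26.2 and 26.8 in FVB mice of 6 months and 30.3 to 31.0 in FVB mice of 3 months. It was 25.8-fold higher than in FVB mice of 3 months, which lay just over the floor, so this fold has no firm size. FVB mice of 6 months lay under the floor (limma adjusted p = 4.12e-09 against them). Only the BALB mice brought H2-Eb1 into the test, so that p-value also rests on FVB values under the floor. No other probe set of H2-Eb1 was tested.

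The A molecule of class II gave split results. One probe set of its alpha chain gene H2-Aa was kept higher, by 1.20 against FVB of 6 months and 2.04 against FVB of 3 months, and another was kept lower, with differences of -2.05 and -2.39. The third H2-Aa probe set was 0.64 above FVB of 6 months and did not pass the test (limma adjusted p = 0.0858). For the beta chain gene H2-Ab1, 1 probe set was kept lower, with all 3 BALB mice under the floor, and the other 2 were not kept. Over the class II list, 4 of 15 tested probe sets were kept higher and 2 lower, against 20.6% and 17.1% of all tested.

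H2-D1, a classical class I heavy chain gene, had 7 tested probe sets, and all 7 were kept: 3 higher and 4 lower in BALB. The highest of them was at percentiles 96.4, 97.4 and 95.5 in BALB mice, against 26.2, 27.7 and 28.9 in FVB mice of 6 months and 36.8, 37.5 and 39.1 in FVB mice of 3 months. Another was at 53.6, 54.1 and 50.7 in BALB mice, against 82.4, 88.9 and 93.2 in FVB mice of 6 months and 85.3, 88.5 and 90.9 in FVB mice of 3 months. On the rank-matched log2 scale, the 7 differences from FVB of 3 months ran from 7.32 to -3.74. Against FVB of 6 months, which lay under the floor at 1 of the 7, limma adjusted p ran from 3.26e-12 to 0.000383. The smallest of these p-values belongs to that 1 probe set. Only the BALB mice brought it into the test, so its p-value rests on FVB values under the floor. These probe sets lie in a gene family of near-identical members, so their levels cannot be assigned to 1 gene with certainty, and no direction can be given for H2-D1 as a whole.

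Other class I genes were less divided. Both probe sets of Hfe, a class I-like regulator of iron uptake, were kept higher, 1 of them by 2.11 against FVB of 6 months on the rank-matched log2 scale and the other at least 9.58-fold, with both FVB groups under the floor. Both probe sets of Mr1, which presents vitamin metabolites to T cells, were kept lower, 1 with a difference of -1.26 from FVB of 6 months and the other at least 16.7-fold lower, with BALB under the floor. Tap1, a subunit of the transporter that loads peptides onto class I, had 1 of 3 probe sets kept, at percentiles 42.7, 46.6 and 42.3 in BALB mice, against 12.9, 14.5 and 24.8 in FVB mice of 6 months and 13.8 to 14.6 in FVB mice of 3 months. Psmb9, a subunit of the immunoproteasome, was at least 6.01-fold higher, and Tapbp, which helps load class I, had 1 probe set kept each way. Of the 33 tested probe sets in the class I list, 20 (60.6%) were kept, 8 higher and 12 lower, against 37.7% of all tested.

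Interferon-inducible genes had 10 of 68 tested probe sets kept higher and 5 lower, and the median difference of the list was 0.73 against FVB of 6 months and 0.29 against FVB of 3 months, beside 0.22 and 0.26 over all tested probe sets. With groups under the floor set at it, these medians were 0.69 and 0.18, beside 0.20 and 0.15 over all. The mean percentile of the list was 57.7 to 57.8 in BALB mice, 50.4 to 52.4 in FVB mice of 6 months and 51.6 to 52.7 in FVB mice of 3 months, with only the BALB mice apart from the others. The 22.1% kept in the list was under the 37.7% over all probe sets. A few single genes nonetheless showed large differences, and the promoters of 4 of them are shown here because they were higher in BALB and hold a motif of the interferon-stimulated response element type. The sequences are from RefSeq on GRCm38.p6, which represents the strain C57BL/6J and neither strain studied. Each runs 5′ to 3′ on the strand of the gene, from 250 bases before the annotated start, and the capitals mark a match to GAAANNGAAA on that strand or its reverse complement TTTCNNTTTC.
Gbp2b (chr3:142594597-142594896, plus strand): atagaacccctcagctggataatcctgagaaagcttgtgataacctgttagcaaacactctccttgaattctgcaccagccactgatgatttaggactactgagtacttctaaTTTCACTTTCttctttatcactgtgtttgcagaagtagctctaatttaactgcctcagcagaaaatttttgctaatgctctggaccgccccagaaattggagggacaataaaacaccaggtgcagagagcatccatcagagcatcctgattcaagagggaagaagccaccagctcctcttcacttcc
Mndal (chr1:173880138-173880437, minus strand): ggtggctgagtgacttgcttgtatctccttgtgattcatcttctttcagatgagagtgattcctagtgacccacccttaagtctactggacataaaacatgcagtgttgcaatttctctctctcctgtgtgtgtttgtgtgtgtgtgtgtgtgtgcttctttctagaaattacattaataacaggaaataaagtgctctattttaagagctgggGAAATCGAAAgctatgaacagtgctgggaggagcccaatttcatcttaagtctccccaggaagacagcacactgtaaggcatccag
Igtp (chr11:58199306-58199605, plus strand): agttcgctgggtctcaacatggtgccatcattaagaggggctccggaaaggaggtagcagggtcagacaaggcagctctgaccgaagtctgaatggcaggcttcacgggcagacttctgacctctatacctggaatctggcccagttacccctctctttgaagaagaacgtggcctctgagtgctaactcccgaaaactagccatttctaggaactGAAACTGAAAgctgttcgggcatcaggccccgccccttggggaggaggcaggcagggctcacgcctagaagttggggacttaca
Ifih1 (chr2:62646206-62646505, minus strand): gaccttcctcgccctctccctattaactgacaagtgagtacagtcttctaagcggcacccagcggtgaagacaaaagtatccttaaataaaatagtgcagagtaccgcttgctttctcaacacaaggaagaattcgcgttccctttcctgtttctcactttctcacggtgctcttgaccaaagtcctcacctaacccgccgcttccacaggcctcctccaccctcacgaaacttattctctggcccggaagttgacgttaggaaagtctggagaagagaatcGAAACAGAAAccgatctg

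The motif was searched on both strands and was found in 1131 of 32851 promoters of this length (3.44%) and in 402 of the 11466 tested genes that had a promoter in the table (3.51%). It was found in 21 of the 34 tested genes of the interferon list with a promoter, in 4 of 6 genes of that list kept higher and in 0 of 2 kept lower. A match is a description of the letters and does not show a binding site, and the promoter of the studied strains may differ in sequence. No promoter was in the table for Zbp1 or H2-Ea.

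Gbp2b, a guanylate-binding GTPase induced by interferon gamma, was at percentiles 48.2, 48.6 and 49.0 in BALB mice, against 0.325, 0.345 and 0.36 in FVB mice of 6 months and 1.73, 1.78 and 1.88 in FVB mice of 3 months. The BALB mice were far above, and both FVB groups lay wholly under the floor. Gbp2b was at least 9.49-fold higher in BALB (limma adjusted p = 2.57e-15). Gbp2b entered the test through the BALB mice alone, so this p-value also rests on FVB values under the floor. It had no other tested probe set.

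Mndal, a nuclear DNA-sensing family member of the Ifi200 cluster, was at percentiles 87.3, 88.8 and 90.1 in BALB mice, against 16.4, 18.6 and 25.2 in FVB mice of 6 months and 31.4, 32.5 and 33.6 in FVB mice of 3 months. It was 128-fold higher than in FVB mice of 3 months, which lay just over the floor, so this fold has no firm size. FVB mice of 6 months lay under the floor (limma adjusted p = 1.17e-10 against them). Only the BALB mice brought this probe set into the test, so that p-value rests on FVB values under the floor. A second probe set was kept higher as well, 36.2-fold above FVB mice of 3 months. Genes of this cluster share sequence, so the signal of a probe set cannot be assigned to 1 member with certainty.

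Igtp, an immunity-related GTPase that acts on vacuoles of intracellular parasites, was at percentiles 71.7, 70.7 and 67.7 in BALB mice, against 44.8, 54.5 and 61.1 in FVB mice of 6 months and 50.2, 51.7 and 53.8 in FVB mice of 3 months. Its difference of 1.77 ± 0.38 on the rank-matched log2 scale (SE, limma adjusted p = 0.0015) was smaller than those above, and the FVB mice spread more widely. Ifih1, the cytoplasmic sensor of double-stranded RNA also called MDA5, was at 67.9, 70.8 and 68.5 in BALB mice, against 41.0, 45.0 and 52.0 in FVB mice of 6 months and 48.4, 50.5 and 50.9 in FVB mice of 3 months. Both Igtp and Ifih1 separated the 3 BALB mice from all 11 FVB mice.

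Both probe sets of Zbp1, a sensor of Z-form nucleic acid, were kept higher, 1 at least 5.06-fold, with both FVB groups under the floor, and the other by 3.10 on the rank-matched log2 scale against FVB of 6 months. Sp110, a nuclear body protein, had 1 probe set at 43.6 to 43.8 in BALB mice, against 11 to 13.6 in FVB mice of 6 months and 11.7 to 12.3 in FVB mice of 3 months, and another that was not kept, with BALB mice and FVB mice of 3 months under the floor. Trim25, a ubiquitin ligase of the RNA-sensing pathway, was lower at 2 of 3 probe sets, by -1.42 on the rank-matched log2 scale against FVB of 6 months at 1 of them and at least 7.13-fold at the other, where BALB lay under the floor. The leukocyte marker list, 34 tested probe sets, had 6 kept higher and 5 lower (32.4% kept, against 37.7% over all probe sets). Its mean percentile was 58.8 to 61.3 in BALB mice, 53.6 to 58.5 in FVB mice of 6 months and 59.1 to 62.7 in FVB mice of 3 months, so the BALB mice did not stand above both FVB groups. In a bulk muscle sample, fewer cells of a type and less RNA per cell cannot be told apart.

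**Figure D3:**
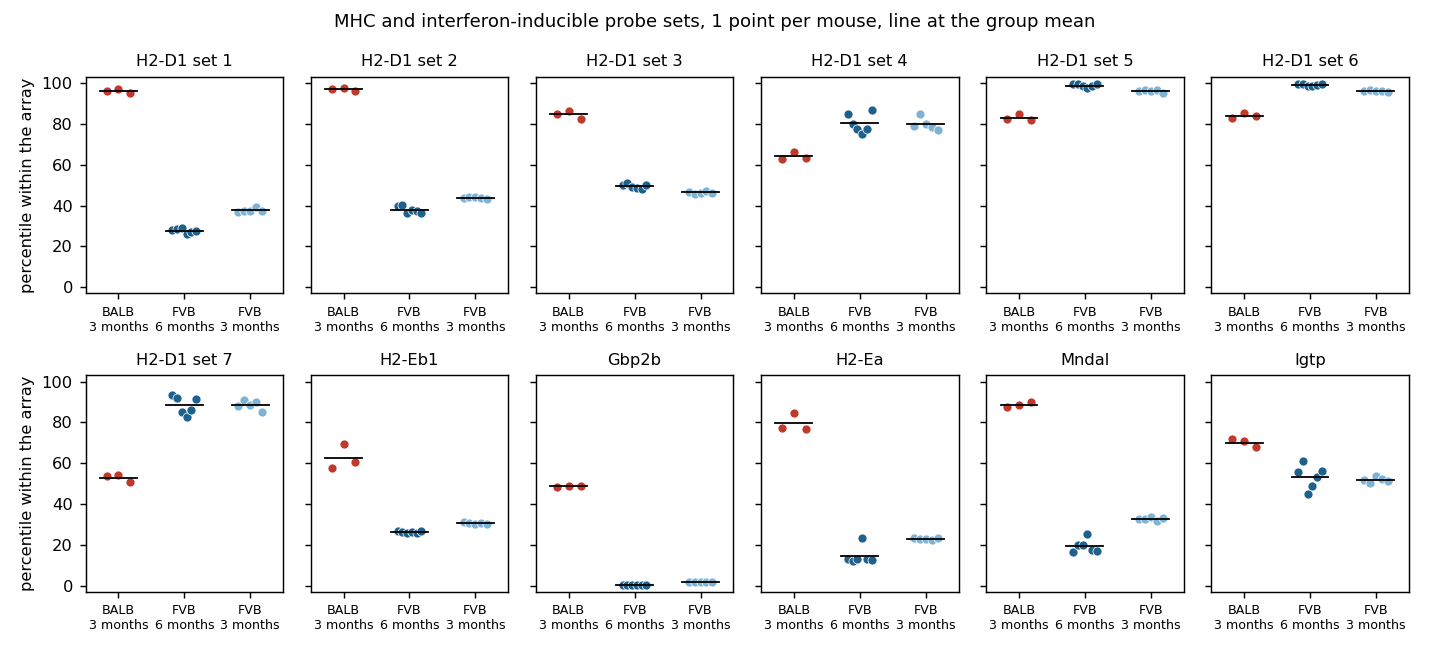
Within-array percentile (0 to 100) per mouse for the 7 tested probe sets of H2-D1, ordered by their difference, and for H2-Eb1, Gbp2b, H2-Ea, Mndal and Igtp, with 1 point per mouse. H2-D1 has BALB mice above all FVB mice at 3 probe sets and below them at 4, whereas BALB is above all FVB mice at the other genes shown.

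The remaining genes of the 12 were the ubiquitin ligases Rnf114 and Trim16, the dynein co-chaperone Nudcd3, Pdxdc1, which carries a decarboxylase domain, the mitotic entry factor Cdca3, the proteasome assembly chaperone Psmg4 and the pseudogene Ube2d-ps of a ubiquitin-conjugating enzyme, beside Xist, H2-Ea, H2-D1, Mndal and Gbp2b. Ube2d-ps was at percentiles 93.7, 93.1 and 94.0 in BALB mice, against 4.88 to 5.08 in FVB mice of 6 months and 6.09 to 17.4 in FVB mice of 3 months. Both FVB groups lay under the floor at 9 of the 12, FVB of 6 months alone at H2-D1 and Mndal, and FVB of 3 months alone at Pdxdc1. With such groups set at the floor, the difference from the nearer FVB group ran from 7.69-fold for Cdca3 to 160-fold for H2-D1. The order of the genes under the floor has no meaning. At H2-D1 and Mndal, FVB mice of 3 months were little above the floor, so their folds have no firm size either. Of the 9 genes with another tested probe set, 3 had another kept higher and 4 had one kept lower. Pdxdc1 was the clearest case, with all 3 of its other probe sets kept lower, by -1.96 and -2.28 from FVB of 6 months at the pair above the floor. In 12 of 12, the Clcn1-null mice lay above all line 20b, line 41 and Mbnl1-null mice.

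At the 12 genes named for a low rank-matched difference, the BALB mice lay wholly under the floor at a probe set that was above it in FVB. Against the floor, they were at least 38.0-fold (Exoc3l2) to 375-fold (Ecpas) lower than in the nearer FVB group. Prkaa2, the catalytic alpha 2 subunit of the energy sensor AMPK, was at percentiles 4.88, 4.87 and 5.25 in BALB mice, against 97.4, 97.8 and 98.2 in FVB mice of 6 months and 97.0, 97.5 and 98.2 in FVB mice of 3 months. It was at least 239-fold lower in BALB than in the nearer FVB group (limma adjusted p = 9.66e-14 against FVB of 6 months). Its other 2 tested probe sets differed by -6.39 and -1.20, and 1 of them was kept.

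Ctnnb1, which encodes beta-catenin, was at percentiles 5.77, 5.57 and 5.94 in BALB mice, against 88.4 to 91.7 in FVB mice of 6 months and 84.8, 85.4 and 86.9 in FVB mice of 3 months. Its other 2 probe sets differed by -1.44 and -1.07. Rab18, a GTPase of lipid droplets, was at 21.0, 21.3 and 20.5 in BALB mice, against 95.4 to 96.4 in FVB mice of 6 months and 92.8 to 93.5 in FVB mice of 3 months, and its other probe set differed by -0.79. The other probe sets of these 3 genes thus showed smaller differences.

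Serinc3, Pde4dip, Exoc3l2, Aplp2, Spop, Epm2aip1, Ecpas, Prkar2a and the muscle splicing factor Rbm24 completed the 12. All 12 had other tested probe sets, 9 had another kept lower and 0 had one kept higher. At Pde4dip, which encodes the centrosome and Golgi protein myomegalin, the other 3 probe sets differed by 0.01 to 0.26 only. At Exoc3l2, the other probe set was 0.89 higher in BALB than in FVB of 3 months, on the rank-matched log2 scale, and was not kept. In 12 of 12, the Clcn1-null mice lay below all line 20b, line 41 and Mbnl1-null mice.

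Genes whose probe sets all agreed were picked out after the disagreement had been seen. Among the higher ones were Mndal, Zbp1, Hfe, both probe sets of Arntl, a core activator of the circadian clock, and both of Acadl, which starts mitochondrial oxidation of long-chain fatty acids. Acadl was at percentiles 98.8, 98.2 and 98.9 in BALB mice at its brighter probe set, against 92.7, 93.5 and 94.7 in FVB mice of 6 months and 96.5, 96.9 and 97.0 in FVB mice of 3 months. Among the lower ones were 3 probe sets of Mbnl1, 5 of Celf1, and both probe sets each of Phkg1, Mr1, Hsp90b1 and the muscle creatine kinase gene Ckm.

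Contractile genes had few kept probe sets. Of the 31 tested probe sets of muscle identity genes, 2 were kept higher and 4 lower, and of the 31 of fast-fibre genes, 1 and 6, which is 19.4% and 22.6% kept against 37.7% over all probe sets. Ckm was at percentiles 99.7, 99.7 and 99.8 in BALB mice, against 99.9 or more in all 11 FVB mice at its brighter probe set, a difference of -0.69 ± 0.06 (SE, limma adjusted p = 1.41e-06). Myh4, the fastest myosin heavy chain, was at 88.4, 88.9 and 88.0 in BALB mice at 1 probe set, where all 11 FVB mice were above 99.9. Its other probe set was above 99.9 in all 14 mice. The slow-fibre list had 1 of 34 probe sets kept higher and 5 lower (17.6% kept). One probe set of Fhl1, a LIM-domain protein of muscle, was lower, with 61.5, 54.9 and 66.6 in BALB mice, against 82.2, 91.4 and 96.5 in FVB mice of 6 months and 89.5, 92.0 and 93.0 in FVB mice of 3 months. The other Fhl1 probe set was not kept and was 0.60 above FVB of 6 months on the rank-matched log2 scale, at 98.9 to 99.1 in BALB mice.

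Clcn1, the muscle chloride channel gene whose mutants the BALB mice served as controls for, was lower in BALB. Its probe set was at percentiles 75, 67.6 and 77.3 in BALB mice, against 83.9, 86.0 and 88.6 in FVB mice of 6 months and 82.8, 84.7 and 87.2 in FVB mice of 3 months. The difference was -1.31 ± 0.20 from FVB of 6 months (SE, limma adjusted p = 0.000137) and -1.23 from FVB of 3 months, and all 3 BALB mice lay below all 11 FVB mice. Of the 76 tested probe sets of excitability and calcium genes, 8 were kept higher and 22 lower, which is 39.5% kept and near the 37.7% over all probe sets. Lower probe sets included 1 each of the triad protein Jph2, the potassium channel Kcnj11 and the calcium channel subunit Cacna2d1. For Jph2 and Kcnj11, the other probe set was not kept, with differences of -0.41 and 0.58 from FVB of 6 months, and for Cacna2d1, 1 of the other 4 was kept lower and 0 higher.

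Regulators of alternative splicing had 11 of 72 tested probe sets kept higher and 27 lower, which is 52.8% kept. Over all tested probe sets, 37.7% were kept, 20.6% higher and 17.1% lower. The mean percentile of the list was 71.2 to 71.7 in BALB mice, 77.8 to 79.4 in FVB mice of 6 months and 75 to 75.9 in FVB mice of 3 months. Mbnl1, the splicing regulator whose null mice had the FVB 3-month mice as controls, was lower at 3 of 3 probe sets. The brightest of them was at percentiles 96.4, 96.3 and 95.4 in BALB mice, against 98.7, 98.8 and 99.0 in FVB mice of 6 months and 98.4, 98.5 and 98.6 in FVB mice of 3 months. That difference was -0.95 ± 0.06 (SE, limma adjusted p = 1.29e-07) from FVB of 6 months. A second had all 3 BALB mice at 1.10, under the floor. It was at 91.0 to 94.0 in FVB mice of 6 months and 54.8 to 77.6 in FVB mice of 3 months. The third also had BALB under the floor, at 22.8 to 23.2, and was at least 1.25-fold lower there. On it, FVB mice of 6 months were at 54.3 to 62.1 and those of 3 months at 52.6 to 53.6.

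Celf1, which acts opposite to Mbnl1 on many exons, was lower at 5 of 5 probe sets, with differences of -4.90 to -1.56 from FVB of 6 months at the 4 probe sets above the floor in all groups. Its brightest probe set was at percentiles 88.3, 87.5 and 89.0 in BALB mice, against 96.6, 97.2 and 98.0 in FVB mice of 6 months and 93.9, 94.5 and 95.2 in FVB mice of 3 months. Rbm24, which promotes inclusion of muscle exons, was lower at 3 of 5 probe sets, but the brightest of its probe sets was at 99.5 in all 3 BALB mice and at 97.3 to 98.1 in FVB mice of 6 months and 99.5 to 99.6 in FVB mice of 3 months. The control groups of the 3 experiments therefore differed at these genes before any mutation was considered.

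Metabolic lists were divided. Fatty acid genes had 11 of 63 probe sets kept higher and 17 lower (44.4% kept), glycolysis and glycogen genes 5 of 59 and 13 (30.5%), and respiratory chain and citrate cycle genes 7 of 107 and 14 (19.6%). These shares compare with 37.7% kept over all probe sets, 20.6% higher and 17.1% lower. Ppargc1a, a coactivator of mitochondrial genes, was lower at 3 of 5 probe sets, and its most divergent one was at percentiles 31.7, 27.8 and 27.8 in BALB mice, against 80.9, 86.7 and 91.9 in FVB mice of 6 months and 70.7, 73.5 and 82.6 in FVB mice of 3 months. The catalytic phosphorylase kinase subunit Phkg1 was lower at both probe sets, with differences of -5.74 and -3.29. The muscle fructose bisphosphatase Fbp2 was higher, at 97.1, 96.2 and 97.5 in BALB mice, against 68.0, 71.3 and 75.7 in FVB mice of 6 months and 69.6, 73.7 and 78.6 in FVB mice of 3 months, with a difference of 3.26 ± 0.16 (SE, limma adjusted p = 2.06e-08). It had no other tested probe set. Among the respiratory genes, Atp5g1 differed by -3.19 at 1 probe set and by 0.03 at the other, which did not pass the test.

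Clock genes had 4 of 51 probe sets kept higher and 13 lower (33.3% kept, against 37.7% over all probe sets). The list median was -0.77 from FVB of 6 months and -0.83 from FVB of 3 months, beside 0.22 and 0.26 over all tested. With groups under the floor set at it, the list medians were -0.77 and -0.63. The activator gene Arntl was at percentiles 72.8, 74.5 and 80.5 in BALB mice, against 48.7, 54.8 and 66.4 in FVB mice of 6 months and 47.6, 51.2 and 56.2 in FVB mice of 3 months. Tef and Nr1d2, output and repressor genes of the clock, were lower at 1 probe set each, with all BALB mice under the floor. Their brightest probe sets were not kept, and that of Nr1d2 was at 91.0 to 93.1 in BALB mice, between 87.4 to 89.3 in FVB mice of 6 months and 97.0 to 97.7 in FVB mice of 3 months. The hour at which muscle was taken was not given in the sources used here.

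Connective tissue genes had 2 of 51 probe sets kept higher and 12 lower, which is 27.5% kept, against 37.7% over all probe sets. Col1a1, a chain of type I collagen, was at percentiles 74.1, 59.8 and 76.3 in BALB mice at the kept probe set, against 87.6, 92.8 and 94.2 in FVB mice of 6 months and 92.0, 97.0 and 97.1 in FVB mice of 3 months. A second Col1a1 probe set was at 76.2, 67.4 and 73.6 in BALB mice and at 70.2 to 80.4 in FVB mice of 6 months, which overlapped. Col1a2, the partner chain, likewise had 1 of 3 probe sets kept, with a difference of -2.87 from FVB of 6 months. The adipocyte list had 2 of 42 kept higher and 7 lower (21.4% kept). Its median was -1.43 from FVB of 6 months and -0.44 from FVB of 3 months, and -1.0 and -0.44 with groups under the floor set at it. The mean percentile of the connective tissue list was 70.8 to 72.5 in BALB mice, 73.4 to 76.8 in FVB mice of 6 months and 80.1 to 83.4 in FVB mice of 3 months. These ranges did not overlap, and the part of connective tissue content in the other results was not tested.

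Vessel genes had 6 of 48 probe sets kept higher and 11 lower (35.4% kept, against 37.7% over all probe sets). Pecam1, an adhesion protein of endothelium with 1 tested probe set, was at percentiles 51.3, 55.2 and 60.5 in BALB mice, against 73.1, 74.2 and 78.1 in FVB mice of 6 months and 76.8, 77.3 and 78.0 in FVB mice of 3 months. C1qa, a complement gene of tissue macrophages, was at 31.1, 31.2 and 31.4 in BALB mice, against 64.0, 72.3 and 77.7 in FVB mice of 6 months and 71.9, 78.7 and 81.5 in FVB mice of 3 months. Its partner genes were not kept: the 3 probe sets of C1qb and that of C1qc were 0.25 to 0.97 above FVB of 6 months. They differed by -1.26 to -0.16 from FVB of 3 months, where C1qa differed by -6.13. Adgre1, Csf1r and Aif1, other macrophage genes, had 1 probe set each kept higher, in a leukocyte list with 6 of 34 kept higher and 5 lower. Another Csf1r probe set was not kept, at 70.4 to 71.4 in BALB mice and 72.6 to 77.2 in FVB mice of 3 months. Cd68 and Cd163 were not kept either. They differed by -0.64 and 2.09 from FVB of 6 months and by -2.24 and 0.29 from FVB of 3 months. The nerve and Schwann cell list had 4 of 21 kept higher and 1 lower, which is 23.8% kept. Its 4 of 21 kept higher compare with 20.6% over all probe sets. Of these 4, 3 were probe sets of the myelin gene Mbp. The other tested Mbp probe sets were not kept. They differed by 0.11, -0.10, -0.96 and 4.12 from FVB of 6 months, and by 0.09, 0.94, -1.14 and 1.30 from FVB of 3 months. The list had a mean percentile of 59.2 to 62.1 in BALB mice, 51.9 to 54.7 in FVB mice of 6 months and 50.9 to 52.3 in FVB mice of 3 months. Nefh, a heavy neurofilament of large axons, was at 59.2, 58.6 and 63.4 in BALB mice, against 37.2, 37.4 and 38.0 in FVB mice of 6 months and 42.9, 43.8 and 45.0 in FVB mice of 3 months. The list of red cell genes had 4 of 12 kept higher and 1 lower (41.7% kept), and the satellite cell and embryonic list 6 of 43 and 8 (32.6%).

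Detoxification and redox genes had 21 of 85 probe sets kept each way, which is 49.4% kept. The lists of this paragraph compare with 37.7% kept over all probe sets, 20.6% higher and 17.1% lower. Adh7, an alcohol and retinol dehydrogenase, was at least 8.54-fold higher in BALB, and the extracellular superoxide dismutase gene Sod3 was lower at both probe sets. Heat shock genes had 5 of 53 kept higher and 14 lower (35.8% kept). Hsp90b1, a chaperone of the endoplasmic reticulum, was lower at both probe sets, at percentiles 84.6, 83.9 and 86.1 in BALB mice at the first, against 94.6, 96.3 and 97.9 in FVB mice of 6 months and 95.3, 96.4 and 97.0 in FVB mice of 3 months. Ribosomal protein genes had 11 of 71 kept higher and 4 lower (21.1% kept), and immediate early genes 2 of 40 and 6 (20%).

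A list of genes known to vary between mouse strains had 10 of 39 tested probe sets kept higher and 5 lower, which is 38.5% kept against 37.7% over all. Glo1, which detoxifies methylglyoxal and is known to be duplicated in some strains, was higher at 3 of 4 probe sets, by 0.43 to 2.32 against FVB of 6 months. Klk1b1, a kallikrein, was at percentiles 43.8, 43.3 and 43.7 in BALB mice, against 22, 22.7 and 26.6 in FVB mice of 6 months and 22.3, 22.8 and 23.3 in FVB mice of 3 months. Hc, which encodes complement component C5, was at 60.1, 58.6 and 57.4 in BALB mice, against 38.4, 39.6 and 41.8 in FVB mice of 6 months and 25.2 to 25.4 in FVB mice of 3 months, and was not kept because the FVB groups lay as far from each other. Kitl, the ligand of the receptor Kit, had 1 probe set kept each way.

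**Figure D4:**
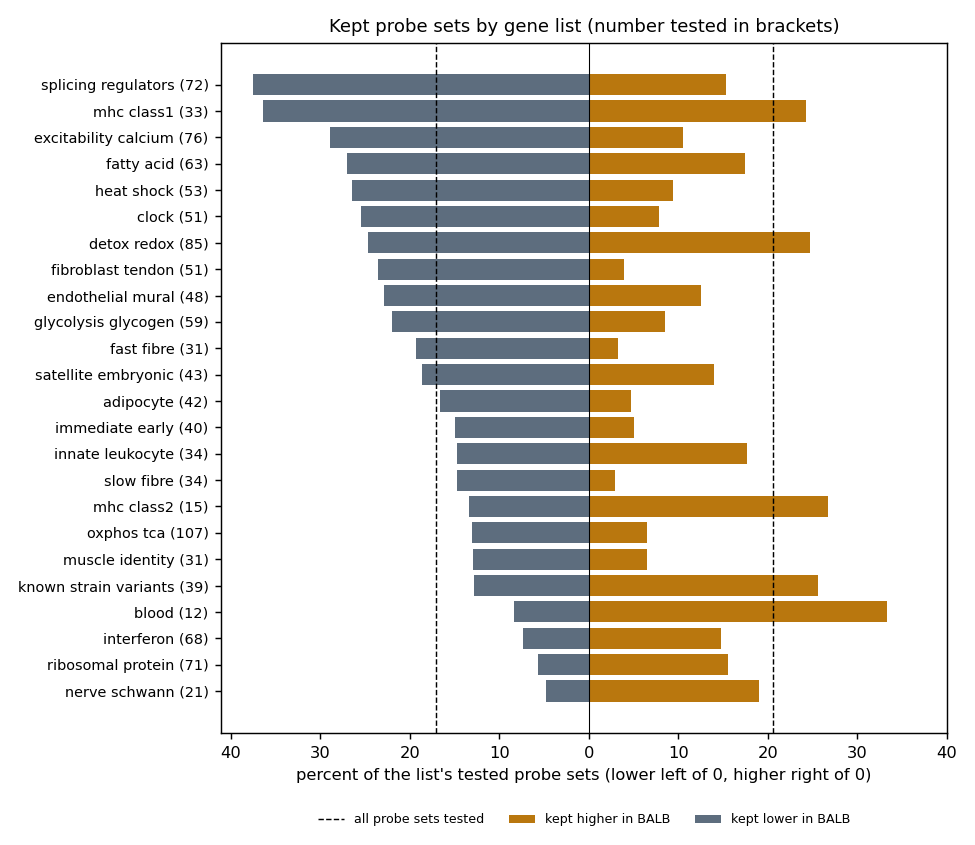
Percent of each gene list's tested probe sets kept higher (right of 0) and lower (left of 0) in BALB than in both FVB groups, with dashed lines at the values over all tested probe sets. The class I list stands at 60.6% kept in all and the muscle identity list at 19.4%, against 37.7% for all probe sets.

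The FVB groups differed from each other at many genes, although they share a strain. Named among those higher in FVB of 6 months were Ddah1, which degrades methylated arginine, the stress protein Sesn3 and the semaphorin receptor Plxna2, with both other groups under the floor and FVB of 6 months at least 79.2-fold, 42.3-fold and 39.2-fold higher. Ddah1 was at percentiles 91.8, 92.7 and 94.2 in FVB mice of 6 months, against 13.5, 6.24 and 6.72 in BALB mice and 9.62 to 29.4 in FVB mice of 3 months. Its other 2 probe sets differed between BALB and FVB of 6 months by -0.37 and 0.90 only. Named among those lower were Idh3a, a citrate cycle enzyme, the transcription factor Ehf and the cleavage factor Nudt21, with FVB of 6 months under the floor and at least 29.4-fold, 9.93-fold and 23-fold lower. Idh3a was at 13.7, 17.5 and 21.1 in FVB mice of 6 months, against 85.5 in all 3 BALB mice and 86.1 to 87.2 in FVB mice of 3 months, and its other 3 probe sets differed between BALB and FVB of 6 months by -0.63 to 0.23. Age, experiment and, for the FVB groups, array type differ together here and cannot be told apart.

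Within a group, mice differed little at most genes. The median SD of the deposited log2 intensity was 0.13 in BALB, 0.18 in FVB of 6 months and 0.14 in FVB of 3 months, and an SD of at least 1 was found at 82, 194 and 51 probe sets (0.369%, 0.858% and 0.227%). These SDs are on each group's own scale and were not compared by a test.

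In FVB mice of 6 months, slow-fibre and fat genes were among the most variable. Myh7, the slow myosin heavy chain, had log2 intensities of 11.06, 7.72, 14.10, 13.91, 13.34 and 13.74 in mice 1 to 6, so that mice 1 and 2 were far below the others. The slow troponins Tnnc1 and Tnnt1 followed the same order of mice, with lowest values of 7.37 and 6.41 in mouse 2. The mean over 19 slow-fibre genes was 10.67 and 9.35 in mice 1 and 2 and 11.76 to 12.51 in the other 4. Fat genes ran the other way, with a mean over 22 adipocyte genes of 12.46 and 12.75 in mice 1 and 2 and 10.84 to 11.28 in the others. Adiponectin (Adipoq), a hormone made by fat cells, was at 13.43 and 13.96 in these mice and at 11.02 to 11.77 in the others. The rest of the 8 genes of largest SD, among probe sets at or above the floor in at least 3 mice, were Lgals12, a galectin of fat cells with its highest value in mouse 2, the nuclear receptor Nr4a3, the stretch-responsive gene Ankrd1, Serpina1b and the channel subunit gene Kcnf1.

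In BALB mice, Ucp1, the uncoupling protein of brown fat, was at log2 intensities of 6.33, 5.68 and 11.94, high in mouse 3 only. Egr1, an immediate early transcription factor, was at 9.79, 13.28 and 9.63, and Fos at 12.03, 14.35 and 11.40, both highest in mouse 2. The mean over 23 immediate early genes was 10.84 in mouse 2, against 9.52 and 9.36 in the other two. Adamts9, Rnase2a, Aplnr, Nr4a3, Particl and Cish completed the 8 named, which were those of largest SD among probe sets at or above the floor in all 3 mice, immunoglobulin genes being passed over. Egr3, an immediate early gene left out because 1 mouse lay under the floor, had deposited log2 intensities of 4.17, 10.16 and 5.72.

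In FVB mice of 3 months, inducible heat shock genes differed between mice. Hspa1b, an inducible Hsp70 gene, was at log2 intensities of 11.43, 14.12, 11.32, 13.74 and 11.10 in mice 1 to 5, and Hspa1a at 9.50, 12.40, 9.38, 12.08 and 8.98, both high in mice 2 and 4. Ucp1 was at 7.90, 7.18, 3.58, 7.36 and 3.64, high in mice 1, 2 and 4. Cish, a feedback inhibitor of cytokine signalling, was at 6.13 in mouse 1 and at 9.69 to 10.25 in the others. Hspa8, Ddit4, Arrdc2, Syp and Rbbp4 were the other genes among the 8 named.

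**Figure D5:**
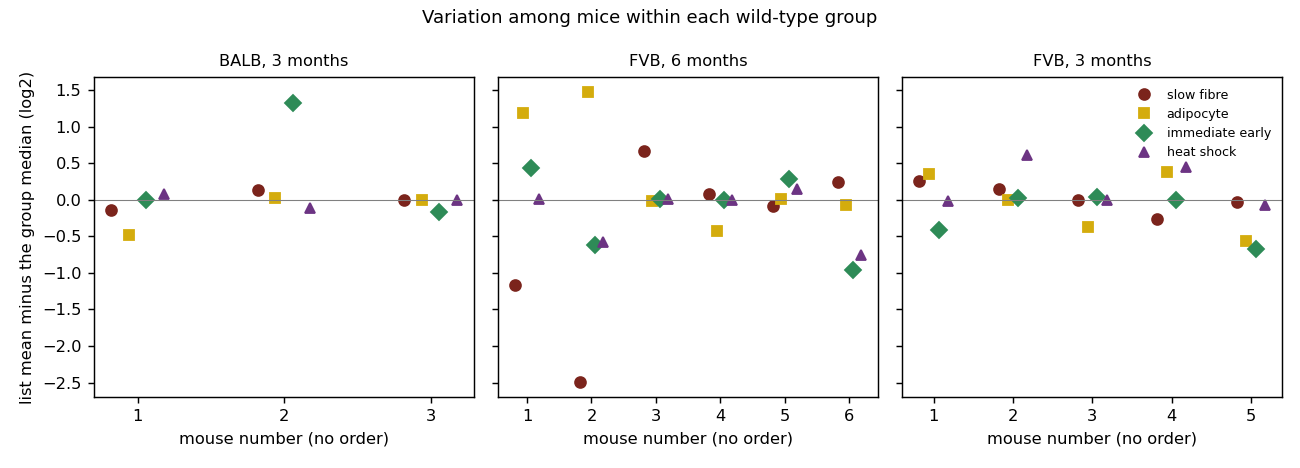
Mean deposited log2 intensity of the slow-fibre, adipocyte, immediate early and heat shock lists in each mouse, minus the median of its group (vertical axis, log2), with 1 panel per group and 1 symbol per list and mouse. FVB 6-month mice 1 and 2 are low for slow-fibre genes and high for adipocyte genes, BALB mouse 2 is high for immediate early genes, and FVB 3-month mice 2 and 4 are highest of their group for heat shock genes.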

How the data were processed

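Quadriceps RNA of 34 mice was measured on 58 arrays, of which the 23 arrays of 14 wild-type mice are described here. The deposited values are linear probe set intensities made by the authors with GCRMA, per the submitters' processing notes, and its version and settings are not given in the sources used here. Intensity scales differ between the 3 experiments, and only experiment 3 was deposited apart from the others. Each probe set was therefore ranked within the array (430A and 430B sets apart) and set on a common log2 scale by rank. A probe set was tested if it was at or above percentile 30 (430A) or 50 (430B) in at least 3 of the 9 BALB and FVB 6-month mice. The BALB minus FVB 6-month difference was fitted with limma 3.58.1 (trend, R 4.3.3), two-sided, with Benjamini-Hochberg adjustment. Other values used pandas 2.3.3, numpy 2.4.6 and scipy 1.17.1. The same percentiles set the floor for folds written "at least", 5.06 in log2 on 430A and 4.74 on 430B. An intensity of 32 was reached by 69.4 to 69.6% of 430A probe sets in BALB mice and 70.4 to 71.6% in FVB 6-month mice. In FVB 3-month mice, it was reached by 52.4 to 52.9%. Folds from FVB 3-month values a little over the floor therefore have no firm size.

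Named genes were the 12 kept genes ranked first by the difference from the nearer FVB group in each direction, before any floor was applied, up to 4 kept genes per list, the genes targeted in the series, the 3 genes each way for FVB 6 months and the 8 genes of largest SD per group. Other genes named were chosen after their values were seen. The wild-type groups and all 25 gene lists were chosen with earlier results of these data known. In a test on simulated data of the BALB minus FVB 6-month comparison over 30691 probe sets, log2 changes of 0.5, 1 and 2 were called at 26%, 71% and 92%, and 8 of 138 calls were of unchanged probe sets. Only 50, 100 and 50 probe sets were changed by these sizes, with no difference between experiments simulated. In the data 84.2% were called, so the simulated shares do not carry over to them. The numbers of the mice did not pair them across experiments, with correlations of their deviations from -0.07 to 0.05. Alternatives covered the filter, the threshold, the scale, the probe set chosen per gene, the replicate block and each mouse left out.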

Additional observations from a re-analysis of the deposited data

Results flagged for a closer look

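Of 184 pairs of a group and a named probe set, 14 (7.61%) had 1 mouse whose gap to the nearest other mouse was large for the range of its group by Dixon's 95% limit. The pairs include the probe sets of largest SD in each FVB group. This share therefore cannot be set against the 1 in 20 of chance. Values are deposited log2 intensities, and only 5 of the 14 had a range of at least 1.

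Those 5 were as follows. Ankrd1 was at 14.25 in FVB 6-month mouse 3, with a group median of 9.02. Hspa8 was at 9.95 in FVB 3-month mouse 2, with a median of 5.44. Cish was at 6.13 in FVB 3-month mouse 1, with a median of 10.17. Acly, which makes acetyl-CoA for fat synthesis, was at 11.25 in FVB 6-month mouse 5, with a median of 10.39. Col1a2 was at 12.65 in FVB 3-month mouse 1, with a median of 13.48.

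The remaining gaps were small. In FVB mice of 6 months, Junb was at 6.81 in mouse 2 (median 7.59), Pecam1 at 11.51 in mouse 6 (11.12), Srsf3 at 9.57 in mouse 6 (9.97) and Fabp3 at 7.82 in mouse 5 (8.04). In FVB mice of 3 months, mouse 2 had H2-Aa at 9.59 (8.90), Hsp90b1 at 11.74 (11.21) and Fn1 at 3.32 (3.65). Sox17 was at 6.91 in mouse 1 (6.55) and Tapbp at 6.59 in mouse 4 (6.38).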

How the results depend on the processing

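Of 116 named differences recomputed under the alternatives, giving 2287 values, 2286 kept their direction and side of the threshold, 0 reversed, and Ryr1 lost its call with the percentile as the response (0.15, limma adjusted p = 0.153). For probe sets called, BALB minus FVB 6 months, the count was 17188 with the floor at percentile 50 and 70, and 11531 with 1 probe set per gene (67.1% higher). For probe sets kept, BALB against both FVB groups, 1 probe set per gene gave 5151 (68.9% higher, against 54.6%). Of the 4420 genes with at least 2 tested probe sets and any of them kept, 396 had every tested one kept in 1 direction. For probe sets in which FVB 6 months stands apart, the count was 13173 without the condition on the difference between the other groups and 4973 with the higher floor. For probe sets in which FVB 3 months stands apart, it was 12351, 4195 and, with no filter, 16133 (61.6% higher, against 33.7%). The stricter floor tests fewer probe sets, as does 1 probe set per gene. Having no filter also admits probe sets bright only in FVB 3-month mice. The cause of the other changes was not tested. With the replicate block, 24575 probe sets were called and 11393 kept. Leaving out each mouse in turn gave 25017 to 25789 called, 11576 to 11789 kept, 11588 to 11896 for probe sets in which BALB stands apart, 7754 to 7857 for FVB 6 months and 7522 to 7675 for FVB 3 months. With deposited log2 values centred on each array's median, 26545 were called and 8456 kept, of which 6593 were shared. At 3773 of the kept probe sets at least 1 group lay wholly under the floor, so that their exact differences have no firm size.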
